A study of Mus musculus with 6 samples.

Results

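The complement components and receptors were examined as 9 genes, C1qa, C1qb, C1qc, C2, C3, C4b, Cfb, C3ar1 and C5ar1, of 36870 gene names on the array. All non-control probes carrying one of these names were taken, which gave 13 probes: 5 genes had 1 probe and 4 had several. The genes were compared between the whole kidneys of 3 female MRL/MpJ (MRL) mice and 3 female MRL/MpJ-Fas lpr/lpr (LPR) mice, all at 6 months of age and with 1 Cy3 array per mouse. LPR mice share the MRL/MpJ background and carry the lpr mutation of Fas, a death receptor, on both alleles in every cell. They develop a lupus-like autoimmune disease with nephritis, and the study compared them with MRL mice for the lymphoid tissue that forms in the diseased kidney. MRL mice are controls of the same background and not an unrelated healthy strain, and the spontaneous disease is a model of lupus and not of other kidney disease.

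Complement is a cascade of plasma proteins that marks and clears targets. C1q binds antibody in immune complexes and starts the classical pathway, in which C4 and C2 form an enzyme that cleaves C3, while factor B forms the corresponding enzyme of the alternative pathway. The released C3a and C5a fragments act on leukocytes through the receptors encoded by C3ar1 and C5ar1. The liver makes most circulating complement, whereas macrophages and dendritic cells make C1q, and tubular cells of the kidney can make several other components.

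On the arrays, the C1q chains rose 10.1-fold to 10.8-fold in LPR kidneys, C4b rose 8.0-fold, C3 rose 5.59-fold, C3ar1 rose 4.82-fold and C5ar1 rose 5.17-fold, while C2 and Cfb did not pass the test. By the brightest tested probe, 7 of the 9 genes were higher in LPR mice in limma, fitted over all tested probes at an adjusted p under 0.05, and 0 were lower (0 also at an unadjusted p under 0.05 and by the methods' test). A probe entered the test if 3 or more of the 6 arrays measured it well above background, which held for 12 of the 13 probes, and 9 of these 12 were higher. In comparison, 6.53% of all 39924 tested probes were higher and 6.17% were lower. The 2462 lower calls fell to 886, 800 and 857 without MRL 1, 2 or 3, to 1528 without LPR 1 and to 878 without LPR 3, and the 2606 higher calls fell to 1659 without LPR 3, while 7 member genes were higher with any one mouse left out. The signals of all 3 LPR mice lay above those of all 3 MRL mice for 11 of the 12 member probes, against 11.0% of all tested probes. Values below are log2 intensities after the 75th percentile of each array was set to 0, log2 changes are those of LPR over MRL mice, and different probes are not compared as amounts of transcript. The median log2 change over all tested probes was -0.14, and the 10th and 90th percentiles were -0.52 and 0.40. Relative to that median, the changes of the brightest probes were 3.47 to 3.57 for the C1q chains, 0.41 for C2 and 0.24 for Cfb. In whole kidney, more cells of a type and more RNA per cell cannot be told apart.

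**Figure D1:**
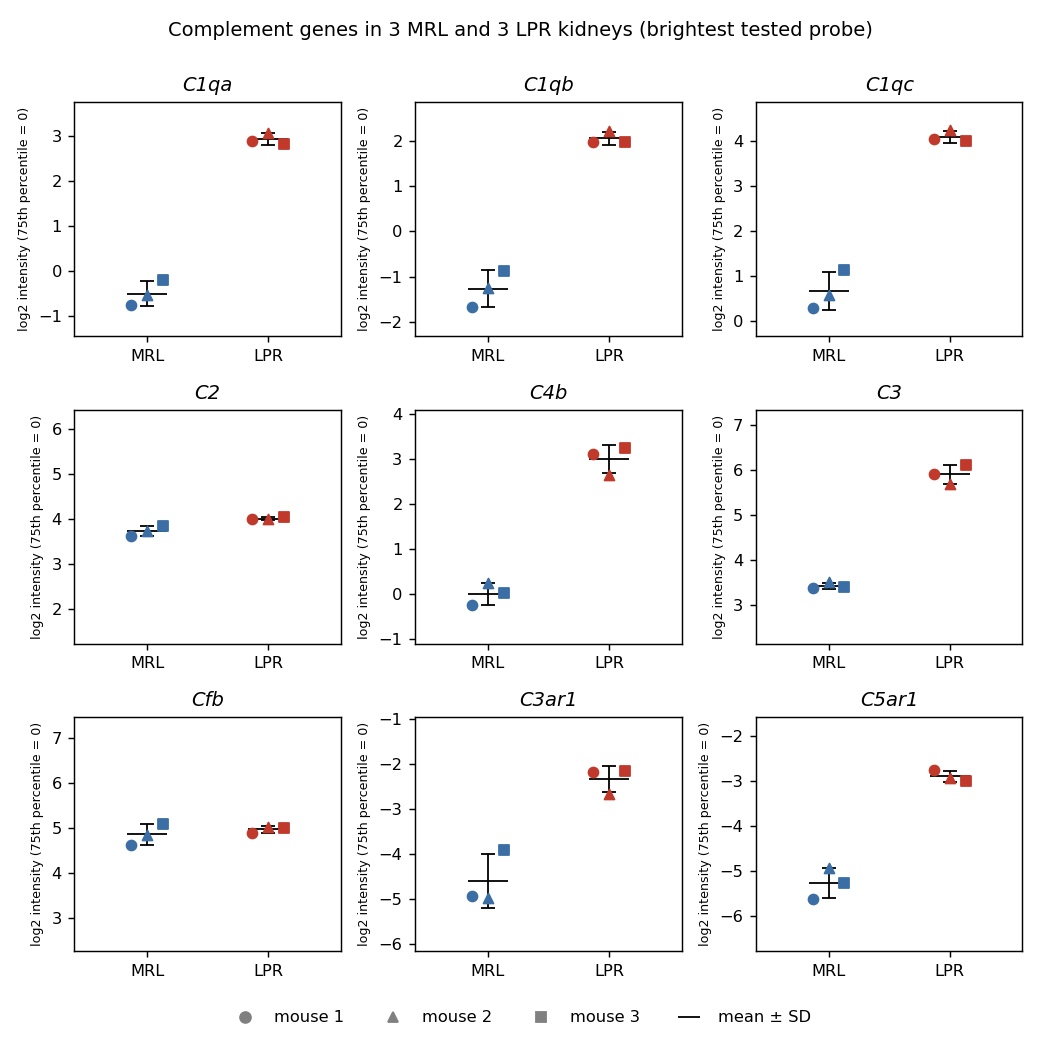
Log2 intensity of the brightest tested probe of each of the 9 complement genes in 3 MRL mice (blue) and 3 LPR mice (red), with 1 symbol per mouse and the mean ± SD as black bars. Every panel spans the same number of log2 units. The groups lie far apart for the C1q chains, C4b, C3, C3ar1 and C5ar1, lie close for C2 and overlap for Cfb.

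C1q is built from an A, a B and a C chain, encoded side by side by C1qa, C1qb and C1qc. The probes of the first 2 are shown because the change of C1q is read from them, and they lie on the minus strand of chromosome 4 in the mm9 build, at chr4:136452409-136452468 for C1qa and chr4:136436578-136436637 for C1qb.
C1qa A_51_P181451: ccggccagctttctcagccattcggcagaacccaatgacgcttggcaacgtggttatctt
C1qb A_51_P351860: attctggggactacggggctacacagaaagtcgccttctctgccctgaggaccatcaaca

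The C1qa probe gave -0.76, -0.54 and -0.20 in MRL mice 1 to 3 and 2.88, 3.07 and 2.83 in LPR mice 1 to 3. The C1qb probe gave -1.68, -1.26 and -0.87 in the MRL mice and 2.00, 2.24 and 1.98 in the LPR mice. For both chains every LPR mouse lay above every MRL mouse, by a gap larger than the whole spread within either group.

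The brighter C1qc probe, A_51_P102789 at chr4:136445766-136445825, gave 0.30, 0.59 and 1.13 in MRL mice and 4.04, 4.26 and 4.01 in LPR mice. The log2 changes were 3.43 (standard error 0.16) for C1qa, 3.34 (standard error 0.21) for C1qb and 3.43 (standard error 0.22) for C1qc, with limma adjusted p of 3.97e-05, 0.000122 and 0.000122. As folds these were 10.8 (95% interval 8.24 to 14.1), 10.1 (7.17 to 14.3) and 10.8 (7.58 to 15.4). They ranked 418, 437 and 415 by log2 change among the 39924 tested probes. A second C1qc probe, A_55_P2721747, whose identifier is an Ensembl transcript, was not well above background on any of the 6 arrays and was not tested.

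The log2 changes of C1qa and C1qb differed by 0.09, with an SD over mice of this difference of 0.13 in MRL and 0.02 in LPR mice. For C1qa against C1qc the difference was -0.00295, and for C1qb against C1qc it was -0.09, with an SD of 0.08 in MRL and 0.01 in LPR mice and the smallest p that the exact permutation test allows, 0.1 (the difference was -0.25 under normexp background correction and kept its sign with any one mouse left out). None of the 6 pairs of members compared passed an exact two-sided permutation test of 3 against 3 mice, which with that smallest p cannot reach 0.05 (adjusted p over the 6 pairs, 0.3 to 1).

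Both C1qb and C1qc, but not C1qa, had an entry in the RefSeq promoter table (GRCm38.p6), in which 5 of the 9 members were found. The 250 bases before the start of each are shown because they held a match to GAGGAA, the core of sites bound by ETS factors such as PU.1 of macrophages, searched on both strands and set in capitals. They lie at chr4:136886201-136886450 for C1qb and chr4:136892915-136893164 for C1qc, both read from the minus strand.
C1qb upstream: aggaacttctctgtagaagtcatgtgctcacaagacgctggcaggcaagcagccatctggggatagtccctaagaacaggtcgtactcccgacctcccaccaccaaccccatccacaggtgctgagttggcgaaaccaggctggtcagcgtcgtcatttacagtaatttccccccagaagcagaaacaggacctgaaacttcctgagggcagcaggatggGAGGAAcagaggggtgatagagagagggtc
C1qc upstream: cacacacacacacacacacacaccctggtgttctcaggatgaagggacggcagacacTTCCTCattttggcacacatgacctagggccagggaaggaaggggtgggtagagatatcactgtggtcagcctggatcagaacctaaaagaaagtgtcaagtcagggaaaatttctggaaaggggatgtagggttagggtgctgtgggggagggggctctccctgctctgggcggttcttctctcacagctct

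The match lay 30 to 25 bases before the start of C1qb, on the strand of the gene, and 193 to 188 bases before that of C1qc, on the opposite strand. It was found in 2 of the 5 member promoters and in 23.3% of all 32851 windows of the same length. GAAANNGAAA, the ISRE of interferon responses, was found in 2.98% of all windows, and GGGNNTTCC, the core of an NF-kB site, in 4.98%. These 2 motifs were not found in the windows of C1qb, C1qc, C3, C3ar1 or C5ar1.

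C4b, the mouse form of C4, provides one subunit of the classical C3-cleaving enzyme. Its brighter probe, A_66_P117032 at chr17:34865367-34865426, gave -0.24, 0.25 and 0.04 in MRL mice and 3.13, 2.66 and 3.26 in LPR mice. The groups did not overlap, and LPR 2 was the lowest of its group. The log2 change was 3.00 (standard error 0.20, limma adjusted p = 0.000149), a fold of 8.0 (95% interval 5.79 to 11.1). The second C4b probe, A_51_P428708, rose by a log2 change of 2.47 (standard error 0.17, limma adjusted p = 0.000198), or 5.54-fold (95% interval 4.18 to 7.34), again with LPR 2 the lowest.

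The accessions listed for the second C4b probe also include C4a, the neighbouring paralog, and those of the C4a probe include C4b, so these probes cannot tell the paralogs apart, whereas A_66_P117032 is listed for C4b only. Both shared probes are shown for that reason. They lie on the minus strand of chromosome 17, at chr17:34866361-34866420 and, with a gap in the genome, chr17:34948806-34949824.
C4b A_51_P428708: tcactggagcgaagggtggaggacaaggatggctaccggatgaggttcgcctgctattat
C4a A_55_P2745402: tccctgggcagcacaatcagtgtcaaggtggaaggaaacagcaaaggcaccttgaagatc

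The C4a probe averaged -4.24 ± 0.45 (SD, n = 3) for MRL kidneys and -1.73 ± 0.34 (SD, n = 3) for LPR kidneys. The change of 2.51 on the log2 scale (standard error 0.26, limma adjusted p = 0.00129) stood beside 2.47 for the shared C4b probe.

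C2, the other subunit of the classical enzyme, did not pass the test. Its probe, A_51_P497985, gave 3.62, 3.72 and 3.83 in MRL mice and 3.98, 3.99 and 4.03 in LPR mice. The groups did not overlap, but the gap between them was smaller than the range of the MRL mice. The change of 0.28 on the log2 scale (standard error 0.10) missed the threshold (limma adjusted p = 0.125, unadjusted p = 0.0307), and the 95% interval of the fold, 1.02 to 1.44, lay wholly below that of C4b. Under normexp background correction the log2 change was 0.29 and C2 passed, with an adjusted p of 0.0485.

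C3, on which all pathways meet, was measured by 2 probes on chromosome 17. A_51_P110301 gave 3.37, 3.51 and 3.40 in MRL mice and 5.92, 5.70 and 6.12 in LPR mice. The log2 change was 2.48 (standard error 0.13, limma adjusted p = 6.36e-05), a fold of 5.59 (95% interval 4.49 to 6.96). The second probe, shown here as another reading of C3 in the same mice, lies at chr17:57343678-57343737 on the minus strand. It rose by 2.36 (standard error 0.14, limma adjusted p = 8.74e-05), or 5.13-fold.
C3 A_55_P2038525: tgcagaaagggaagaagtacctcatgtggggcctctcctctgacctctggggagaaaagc

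The groups did not overlap at either C3 probe, and the SD at the brighter one was 0.07 in MRL and 0.21 in LPR mice. The difference between the log2 changes of C3 and of C4b was -0.52 with the brightest probes, with an SD over mice of 0.18 in MRL and 0.13 in LPR mice, and had the smallest possible exact permutation p of 0.1 (adjusted over the 6 pairs, 0.3). With the shared C4b probe in place of the specific one, the C3 and C4b log2 changes were 2.48 and 2.47.

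Cfb encodes factor B, the alternative pathway counterpart of C2, and lies next to it. Its 2 probes are shown because they differed in how the groups were placed. They lie on the minus strand at chr17:34993502-34993858, with a gap in the genome, and at chr17:34994617-34994676.
Cfb A_51_P413866: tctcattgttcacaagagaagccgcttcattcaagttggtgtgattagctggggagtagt
Cfb A_66_P138911: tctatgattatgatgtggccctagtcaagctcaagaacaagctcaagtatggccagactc

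The brighter Cfb probe, A_51_P413866, gave 4.63, 4.85 and 5.08 in MRL mice and 4.88, 5.02 and 4.99 in LPR mice. MRL 3 was the highest of all 6 mice, so the groups overlapped. The log2 change was 0.11 (standard error 0.14, limma adjusted p = 0.626), a fold of 1.08 (95% interval 0.858 to 1.36).

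At the second Cfb probe, A_66_P138911, the mice gave 2.27, 2.65 and 2.75 in MRL and 2.83, 2.92 and 2.95 in LPR. The groups did not overlap there, but the change of 0.34 (log2, standard error 0.15) missed the threshold (limma adjusted p = 0.172), and the interval of the fold ran from 0.995 to 1.62. MRL 1 was the lowest mouse at both Cfb probes and at C2, and without it the log2 change of the brighter Cfb probe was -0.0032. C2 and Cfb differed in log2 change by 0.17 (exact permutation p = 0.2, adjusted 0.4). Their brightest probes spanned 6133 bases, and the C2 and C4b probes spanned 134268 bases of chromosome 17, so the genes of 1 neighbourhood included both the 8.0-fold rise and the smallest changes among the members.

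**Figure D2:**
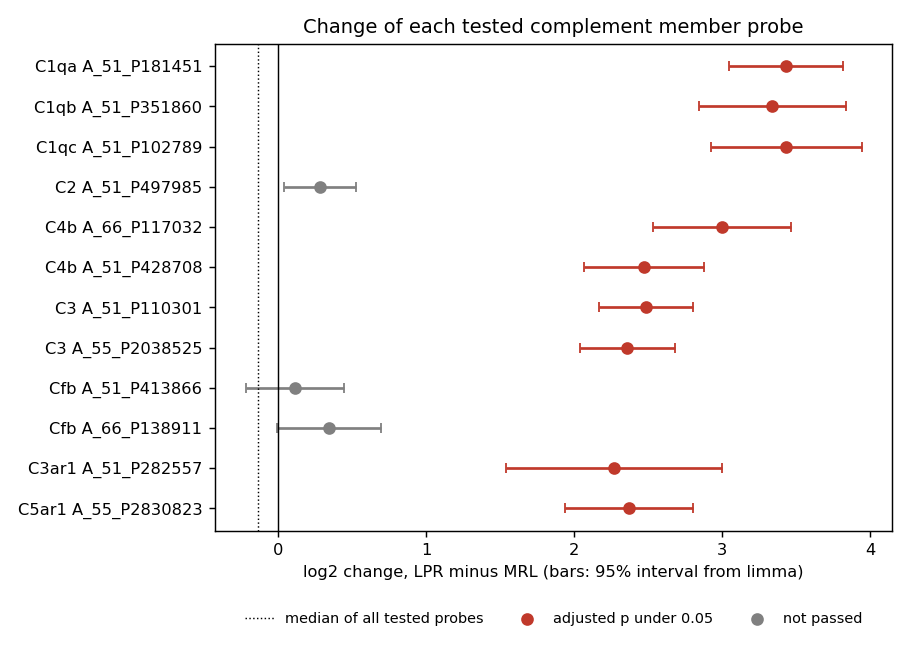
Log2 change (LPR minus MRL) of the 12 tested member probes with its 95% interval from limma, in red where the adjusted p is under 0.05, with the median of all tested probes (-0.14) as a dotted line. The 3 probes of C2 and Cfb sit between 0.11 and 0.34, and the other 9 probes between 2.27 and 3.43.

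The receptors C3ar1 and C5ar1, found on myeloid cells, were dim in MRL kidneys. C3ar1, on chromosome 6, gave -4.93, -4.98 and -3.91 in MRL mice and -2.19, -2.68 and -2.15 in LPR mice. The groups did not overlap, and MRL 3 lay 0.69 above the mean of the MRL mice. The log2 change was 2.27 (standard error 0.31, limma adjusted p = 0.0044), or 4.82-fold (95% interval 2.90 to 8.0).

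C5ar1, on chromosome 7, gave -5.62, -4.94 and -5.27 in MRL mice and -2.76, -2.95 and -3.00 in LPR mice. Its signal exceeded the background in 2 of 3 MRL mice and in all 3 LPR mice, which were enough for it to be tested. The log2 change was 2.37 (standard error 0.18, limma adjusted p = 0.000305), or 5.17-fold (95% interval 3.83 to 6.98). The receptors differed in log2 change by -0.10, less than the SD of that difference among MRL mice, 0.70.

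The size of the receptor changes depended on the background correction. Under normexp correction the log2 change was 1.17 for C3ar1 and 0.83 for C5ar1, still past the threshold (adjusted p = 0.000157 and 8.25e-05). C3ar1 no longer passed with the side of the slide as a block (log2 change 2.42, adjusted p = 0.0503), nor by the test named in the study's methods (adjusted p = 0.0518). MRL mice 1 to 3 and LPR 1 lay on one side of the slide and LPR 2 and 3 on the other, so that block in effect sets LPR 1 against the MRL mice. With it the log2 changes of the brightest probes were 3.27 to 3.38 for the C1q chains, 2.49 for C3 and 3.11 for C4b, and 6 member genes passed.

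Mice of a group differed in ways that divided the members. Among LPR mice, LPR 2 was the highest for all 3 C1q chains, by 0.14 to 0.16 above the group mean, but the lowest for both C3 probes, both C4b probes, C4a and C3ar1, by 0.21 to 0.38 below it. Among MRL mice, MRL 3 was the highest for the C1q chains, C2, both Cfb probes and C3ar1, whereas MRL 2 was the highest for C3, C4b and C5ar1. These are orders of 3 mice and were not tested. Over all tested probes, LPR 2 was the highest LPR mouse in 42.1% and the lowest in 34.0%, and MRL 3 was the highest MRL mouse in 33.5%.

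**Figure D3:**
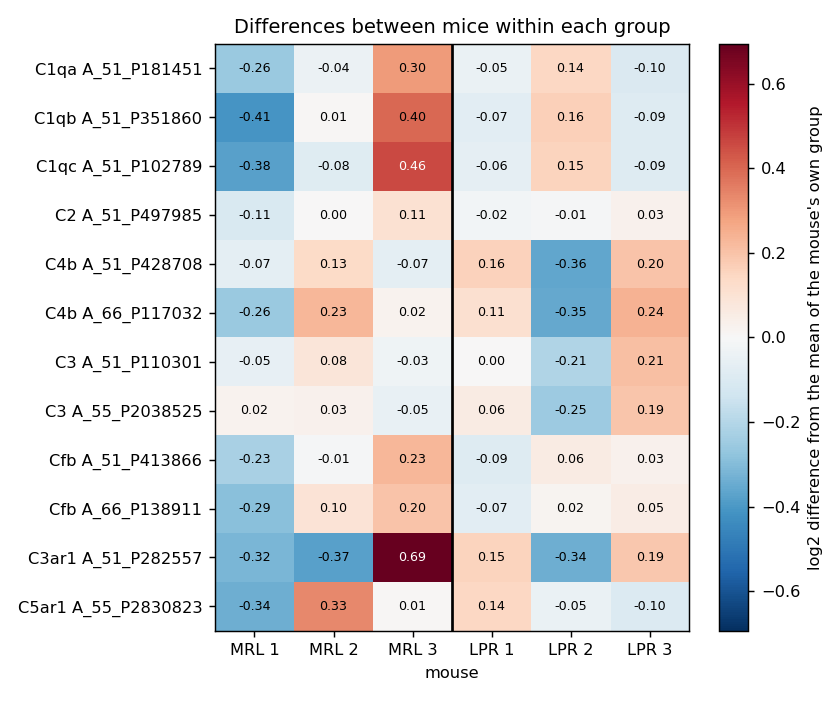
Difference of each mouse from the mean of its own group (log2 units, colour and number) for the 12 tested member probes, with MRL mice left and LPR mice right of the line. LPR 2 is above its group for the C1q chains (0.14 to 0.16) and below it for C3, C4b and C3ar1 (-0.21 to -0.36).

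The genes whose signal followed the mean of the C1q chains most closely over the 6 arrays were Fermt3, an integrin activator of blood cells, Sash3, a lymphocyte adaptor, Socs1, a suppressor of cytokine signals, Lgals3bp, and a transcript with no gene symbol on the array, ENSMUST00000103469. The probe of that transcript lies at chr12:115298056-115298115 in mm9 and rose by a log2 change of 5.47. Pearson's r was 0.999 or higher for each. With 2 groups so far apart, r mostly reflects the group difference, and it is given as a description. Among 39913 probes, C5ar1 ranked 657 in this likeness, C3 751, C4b 824, C3ar1 1327, C2 1619 and Cfb 7009. The 4 macrophage genes that were ranked, Lyz2, Cd68, Aif1 and Adgre1, stood at 19, 145, 495 and 2219, so they lay both ahead of and behind these members. Other macrophage genes counted below, among them Fcgr1 (log2 change 4.23), Csf1r (0.55) and Cd163 (-0.07), were not ranked.

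For the other complement genes 50 symbols were listed, with old and new symbols of a gene both included, and 46 were found on the array. The symbols not found were other names of genes that were found. Of the 46 genes 40 were tested, of which 11 were higher, 2 were lower and 27 did not pass, with a median log2 change of 0.11. These shares stand beside the 6.53% and 6.17% of all tested probes, whose median was -0.14. The proteases that C1q activates rose too, C1ra by 1.31 (standard error 0.10, limma adjusted p = 0.00035), C1rb by 1.10, C1s1 by 0.96 and C1s2 by 1.00, while C1rl, at -0.15, did not pass. C1ra and C1rb, and C1s1 and C1s2, are near-identical copies, so the probes of each pair may share signal. A second, dimmer C1s1 probe was at -0.01, and the mean of both probes, 0.47, did not pass (limma adjusted p = 0.172). Serping1, the inhibitor of C1r and C1s, rose by 0.84 (standard error 0.11, limma adjusted p = 0.0031).

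In the alternative pathway, Cfp, which encodes the stabilizer properdin, rose by 2.26 (standard error 0.19, limma adjusted p = 0.000483) and by 2.89 at its dimmer probe. Cfd, the protease that cleaves factor B and a gene of fat cells, gave 4.57, 4.83 and 5.09 in MRL mice and 4.27, 4.43 and 1.38 in LPR mice. LPR 3 stood far below all other mice, and the log2 change of -1.47 (limma adjusted p = 0.244) was -0.48 without it. At both Cfd probes all LPR mice lay below all MRL mice, but the dimmer one, at -1.51, did not pass either (limma adjusted p = 0.233). The alternative pathway genes thus ranged from a called rise of C3 and Cfp to a Cfd change that was not called and whose size rested on 1 mouse.

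Of 7 tested genes of the lectin pathway, which senses sugars and joins the cascade at C4 and C2, 0 were higher, and Mbl1, a mannose-binding lectin, was lower, with a log2 change of -0.70 (limma adjusted p = 0.0122). The Mbl1 call was lost under 3 alternatives. Fcna, a ficolin well above background in 1 MRL and 3 LPR mice, was at 1.13 and did not pass (limma adjusted p = 0.0503), but passed under the median shift (adjusted p = 0.0472), with an intensity trend (0.0351) and without MRL 2 (log2 change 1.47, adjusted p = 0.00394). Higher lectin pathway genes numbered 1 at an unadjusted p under 0.05 in limma, and by the methods' test 1 before adjustment and 0 after.

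Of 5 tested terminal components, which build the membrane pore, C6 was higher by 1.08 (limma adjusted p = 0.0171) and C8a was lower, at -0.66 (limma adjusted p = 0.0194). The C6 call was lost under 5 alternatives and the C8a call under 7. C9 was at 0.06 and did not pass, and Hc, which encodes C5, the precursor of the C5ar1 ligand, was not well above background on any array. Among fluid phase regulators Cfhr2 rose by 0.42 (limma adjusted p = 0.0447), a call lost under 10 alternatives. None of the 6 tested membrane regulators passed, with log2 changes of -0.42 to 0.25, and Cr1l, the rodent regulator Crry, was at 0.08. At an unadjusted p under 0.05 in limma 1 of them passed, and by the methods' test 2 before adjustment and 0 after. Of the other receptors, Itgax and Itgb2, which form complement receptor 4, rose by 3.82 and 3.15, while Itgam, at -0.09, and Cr2, at -0.04, did not pass.

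**Figure D4:**
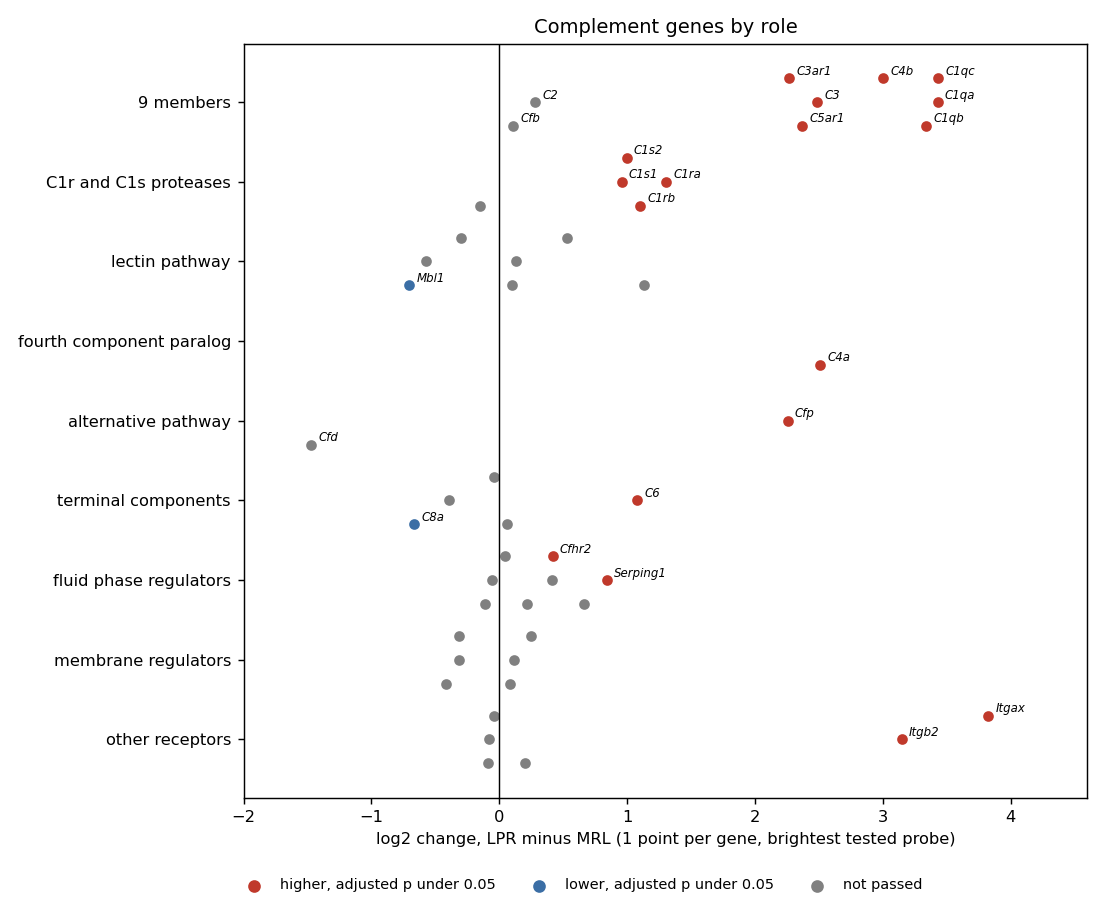
Log2 change (LPR minus MRL) of the 9 members and of the 40 other tested complement genes by role, 1 point per gene from its brightest tested probe, in red or blue where the adjusted p is under 0.05 and in grey otherwise. The points above 2 are members, C4a, Cfp, Itgax and Itgb2, and the membrane regulators lie between -0.42 and 0.25.

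Markers of cells that can make or bind complement were set beside the members, and their part in the results was not tested. Of 9 tested macrophage genes, 8 were higher (median log2 change 2.84), among them Adgre1 by 2.84, Cd68 by 3.1, Csf1r by 0.55 and Fcgr1 by 4.23, and Cd163, at -0.07, did not pass. Their summed linear signal ranged from 23.3 to 31.7 in MRL and from 115 to 126 in LPR mice. Such sums are set mostly by the brightest probes of a list and do not measure a cell type. Here these were Lyz2 (mean log2 intensity 3.20 in MRL and 6.35 in LPR mice) and Csf1r (3.77 and 4.31). MRL 3 was the highest MRL mouse for 6 of these 9 genes, whereas LPR 2 was the highest LPR mouse for 3 and the lowest for 3, unlike for the C1q chains. MRL 3 stood at 0.68 for Adgre1 against -1.57 and -1.76 in the other MRL mice. The number of macrophage genes higher fell from 8 to 5 without MRL 2, LPR 1 or LPR 3, with the side of the slide as a block and by the methods' test. The call of the brighter Adgre1 probe (limma adjusted p = 0.0274) was lost when any one of the mice other than MRL 3 was left out. A dimmer Adgre1 probe was well above background in 0 of 3 MRL and 3 of 3 LPR mice, so it entered the test through LPR mice alone. Its limma adjusted p of 0.00193 belongs to a log2 change of 2.42 that uses MRL values not well above background. Measured against the dimmest signal that was well above background, it rose at least 1.65-fold. The Csf1r call was lost under 11 of 18 alternatives, among them the removal of any one mouse other than MRL 1 (largest adjusted p in limma, 0.103). Without MRL 3 the log2 changes were 3.58, 3.54 and 3.66 for the C1q chains and 2.62 for C3ar1.

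Of 12 interferon-induced genes, 11 were higher (median 1.66), with Irf1 at 2.44 and Igtp at 4.06, and Rsad2, at -0.02, did not pass. As for C3, C4b and C3ar1, LPR 2 was the lowest LPR mouse for 7 of these 12 genes and 5 of 6 dendritic cell genes. As for the C1q chains, it was the highest for 6 of 8 neutrophil, 5 of 7 B and plasma cell and 4 of 7 T cell genes. Over all tested probes it was the lowest in 34.0% and the highest in 42.1%, and these orders were not tested. MRL 3 was the highest MRL mouse for 5 of the 12 interferon-induced genes, whereas MRL 2 was the highest for C3 and C4b. The summed signal of the interferon-induced genes ranged from 14 to 15.3 in MRL and from 81.5 to 82.4 in LPR mice, where Igtp (mean log2 intensity 4.96) was the brightest.

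Genes of hepatocytes, the main source of plasma complement, were counted in the same way, but kidney RNA cannot show what the liver makes. Of 7 tested, 0 were higher (1 at an unadjusted p under 0.05 in limma, and by the methods' test 1 before adjustment and 0 after). Ttr was lower, at -1.39, Fgb was at 0.89 without passing, Alb was at -0.53 (limma adjusted p = 0.419), and Apoa1 was not well above background on any array. The Ttr call was lost under 9 of 17 alternatives, among them the removal of any one mouse other than LPR 2, and 1 hepatocyte gene was higher under normexp correction, with an intensity trend and without LPR 3. Their summed signal ranged from 19.9 to 23.5 in MRL and from 21.2 to 24.9 in LPR mice. It came mostly from Apob and Serpina1a (mean log2 intensity 3.40 and 3.12 in MRL mice, against -0.77 for Alb). Of 8 genes of kidney epithelium 1 was lower and 7 did not pass (median -0.25, from -0.57 for Slc12a1 to 0.69 for Nphs1). The lower gene was Lrp2, the proximal tubule receptor megalin, at -0.39 (limma adjusted p = 0.0492), and no gene of the list was lower with any one mouse left out. Nphs1 was called higher without LPR 3 (0.90). All 8 were well above background on all arrays. Their summed signal, mostly that of Umod, Slc34a1 and Lrp2, was 608 to 640 in MRL and 499.6 to 531 in LPR mice.

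Lists of other leukocytes were counted too. Of 7 T cell genes 6 were higher, up to 4.64 for Cd2, with Cd8a at 0.02, and of 7 B and plasma cell genes 5 were higher, up to 4.49 for Jchain, while the brighter Ms4a1 probe was lower, at -0.70, a call lost with any one mouse left out, and the mean of its probes was higher, at 2.15. Of 6 dendritic cell genes 4 were higher, up to 3.82 for Itgax, with Siglech at -0.10. Among these 4, Xcr1 was well above background in 0 MRL and 3 LPR mice, so its call uses MRL values not well above background. Of 8 neutrophil genes 3 were higher, up to 2.48 for S100a8, with Elane at -0.02. That number became 5 with the filter on all 6 arrays, 6 with an intensity trend, and 0 with the side of the slide as a block or by the methods' test, where S100a8 did not pass either. Of 5 mast cell genes 0 passed, from -0.44 for Tpsb2 to 0.15 for Cma1. At an unadjusted p under 0.05 in limma 1 passed, and by the methods' test 1 before adjustment and 0 after.

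Across the series, 69.6% to 73.5% of spots were well above background, and arrays correlated at 0.990 to 0.993 within a group and at 0.961 to 0.971 between groups. The brighter Fas probe was at a log2 change of -0.47 (limma adjusted p = 0.234). A dimmer Fas probe was well above background in 0 of 3 MRL and 3 of 3 LPR mice, so it entered the test through LPR mice alone. Its limma adjusted p of 0.0338 belongs to a log2 change of 1.89 that uses MRL values not well above background. Measured against the dimmest signal that was well above background, it rose at least 1.47-fold. The positions of the probes relative to the lpr insertion were not examined here, so neither checks the genotype.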

How the data were processed

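Total RNA of 6 kidneys was labelled with Cy3 and hybridized to 1 Agilent SurePrint G3 mouse slide, 1 array per mouse. The paper names Trizol for the isolation and the labels name the RNeasy Mini Kit. The deposited intensities were made by the authors with Agilent Feature Extraction 12.0.3.1, per the file headers with background subtracted and no normalization between arrays. The authors also deposited a series table, used as an alternative, whose ratio values are the same intensities divided by a percentile of each array. Control and outlier spots (73 to 90 per array) were left out, log2 was taken, each array was shifted to set its 75th percentile to 0, and spots of a probe were averaged. No spot was saturated, and the number of arrays limits the precision.

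Of 56605 probes, the 39924 that 3 or more of the 6 arrays measured well above background were fitted with limma 3.58.1 in R 4.3.3 with 2 groups, and p-values were adjusted after Benjamini-Hochberg over the whole set, with a threshold of 0.05. The brightest tested probe over the 6 arrays stood for a gene in counts. Each member probe was named, as were other complement genes that passed without overlap of the groups, a few complement genes in any case, the largest and smallest change of each marker list, some leading markers, Fas and the 5 genes most like C1q. Some items under this rule are not reported here and remain in the counts. The members, lists, rule, tests and alternatives were chosen with earlier results of these data known. Of the 13 member probes, 12 had a RefSeq identifier that matched the same symbol. Positions of probes are from the scanner files, in mm9, with no exon given, and promoters are from RefSeq in GRCm38.p6. Pairs were tested with scipy 1.17.1. Tested on simulated data of 39916 probes and 3 against 3 arrays, limma recovered 49 of 100 probes changed by 1 on the log2 scale and 92 of 100 changed by 2, with 6 false calls.

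Alternatives were quantile normalization, normexp at offset 50, shifting by the median, the authors' table, no filter, a filter on all 6 arrays, outlier spots kept, an intensity trend with robust variances, the replicate number or the side of the slide as a block, the methods' test, averaging a gene's tested probes, and each mouse left out in turn. The methods' test is a Student's t-test, and its p-values were adjusted here over all tested probes, a step the methods do not name. Figures used matplotlib 3.10.9.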

Additional observations from a re-analysis of the deposited data

How the results depend on the processing

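Of 206 values of member probes under the alternatives, 202 kept their direction and their side of the threshold. C2 passed only under normexp correction (0.29). C3ar1 missed the threshold with the side of the slide as a block (2.42) and by the methods' test after adjustment (2.27). The brighter Cfb probe was at -0.0032 without MRL 1, and ranged from -0.0032 to 0.22 with 1 mouse left out. C5ar1 could not be tested with the filter on all 6 arrays. The number of member genes higher ran from 6 to 8, and of member probes from 8 to 10.

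Same-numbered mice deviated together with correlations of 0.115, 0.0203 and 0.00516, and mice of different numbers with -0.0672 to 0.0510. With 3 mice per group, these values cannot tell whether same-numbered mice share more than a number. With the replicate block 7 member genes and 9 member probes were higher, as without it. Over all tested probes the calls fell from 2606 higher and 2462 lower to 2199 and 1117, and 1 other complement gene and 0 marker genes were lower.

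With the side of the slide as a block, calls over all probes were 1458 higher and 463 lower. The lower calls were 4498 under normexp, 1093 without the filter, 3679 with the trend and 1386 by the methods' test, which called 1736 higher. The other complement genes lower, 2, became 0 with the side of the slide as a block, 1 by the methods' test, and 0 to 3 with 1 mouse left out. The marker genes lower, 3, became 5 under normexp, 1 under quantile normalization, the median shift, the authors' table, the side of the slide as a block and the methods' test, 0 without the filter, and 0 to 1 with 1 mouse left out.

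Differences between members with sizes near 0 changed sign. C1qa minus C1qc was 0.00209 under quantile normalization and -0.0834 to 0.0562 with 1 mouse left out. C3ar1 minus C5ar1 was 0.341 under normexp and -0.457 to 0.241 with 1 mouse left out. Of the 5 genes most like C1q, 3 were shared under the median shift and 1 under quantile normalization.

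Among the other named genes, values near 0 also changed sign without passing. With the side of the slide as a block these were Cr1l (-0.0214), Cr2 (0.0143), Cd8a (-0.169) and Rsad2 (0.129), and under normexp C9 (-0.125) and Cma1 (-0.066). With 1 mouse left out, Cr1l ranged from -0.0276 to 0.174, Cr2 from -0.137 to 0.0779, C9 from -0.393 to 0.535, Cd163 from -0.24 to 0.0781, Elane from -0.0573 to 0.0275, Cd8a from -0.057 to 0.12, and Rsad2 from -0.201 to 0.234. The mean of the tested probes was 0.711 for Fas and, past the threshold, 2.15 for Ms4a1. Cfhr2, C8a, C6 and Mbl1 each lost their calls under several alternatives. The brighter Adgre1 probe lost its call without any one mouse other than MRL 3 (largest adjusted p in limma, 0.0828). The causes were not tested.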

Other observations

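Vsig4, the complement receptor of the immunoglobulin family on tissue macrophages, was well above background in 2 LPR mice and in 0 MRL mice and was not tested. Its probe gave -6.79, -6.53 and -7.03 in MRL mice and -5.80, -5.98 and -5.40 in LPR mice, so the groups did not overlap.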
